A study of Mus musculus with 9 samples.

Results

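SHP2, its close relative SHP1 and the proteins that dock them to activated receptors were followed as 10 genes in IMQ-stimulated mouse peritoneal macrophages. The genes were Ptpn11, Ptpn6, Gab1, Gab2, Gab3, Grb2, Sos1, Sos2, Frs2 and Irs2, chosen by name and matched to Ensembl identifiers with the GENCODE M21 annotation. All 10 were found among the 54059 genes of the deposited table, and 9 of them belonged to the 11450 genes with a mean of at least 1 FPKM (fragments per kilobase of transcript, scaled to the depth of the library) over the 9 libraries that entered the tests.

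SHP2 is a cytoplasmic tyrosine phosphatase with a pair of SH2 domains that keep it closed until they bind phosphotyrosines on a receptor or docking protein. Gab, Frs2 and Irs2 proteins supply such docking sites, while the adaptor Grb2 brings the exchange factors Sos1 and Sos2 to the membrane, where they load RAS with GTP and start the ERK cascade. SHP1, rich in blood cells, has the same domain layout and mostly restrains signalling from inhibitory receptors.

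The macrophages came from C57BL/6 mice aged 8 weeks, had been elicited with starch broth, were kept as adherent peritoneal cells and received IMQ, an agonist of TLR7, for 4 h in all 3 groups. WT cells were wild type and had no inhibitor. M-Shp2-/- cells carried a deletion of SHP2 driven by cre from Lyz2, the lysozyme gene of myeloid cells, so that cells without Lyz2 activity in the same dish keep the gene. SHP099 cells were wild type and had been exposed to 10 µM SHP099, an allosteric inhibitor that holds SHP2 closed, for 2 h before IMQ. The IMQ concentration was 10 µg/ml for WT and SHP099 cells and was not given for the M-Shp2-/- libraries in the sources used here. Each group had 3 libraries, with depths of 39844169 to 50957879 reads as recovered from the FPKM values. Nothing in the labels says that the replicates were separate animals, so that p-values measure only the spread between these libraries.

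The cells carried the macrophage markers in every library. All 7 genes of the macrophage list were above 0, with Lyz2 the most abundant and summed levels of 10362, 13354 and 11078 FPKM in WT, 7508, 7397 and 8236 FPKM in M-Shp2-/- and 11597, 12794 and 13530.3 FPKM in SHP099. Lyz2, the locus of cre, made up most of each sum, with 7440, 10228 and 7951 FPKM in WT. It gave 4863, 4743 and 5407 FPKM in M-Shp2-/- and 9348, 10280 and 10715 FPKM in SHP099. The sums thus mainly follow Lyz2 and do not rank the groups by macrophage content. Fcgr1, an IgG receptor, was below 1 FPKM in M-Shp2-/- replicates 1 and 2 (0.987 and 0.701 FPKM), and resident peritoneal markers were low, with sums of 3.54 to 6.59 FPKM over Gata6, Timd4 and Icam2. Fibroblast and mesothelial markers differed widely within groups. The 6 stromal genes, led by collagen Col1a1 in all libraries but WT replicate 3, summed to 56.5, 272 and 36.2 FPKM in WT, to 122, 45.9 and 548 FPKM in M-Shp2-/- and to 334, 126 and 95.0 FPKM in SHP099, so that M-Shp2-/- replicate 3 stood apart with the highest sum and WT replicate 2 was the highest of its group. Over all tested genes M-Shp2-/- replicate 3 had Pearson correlations of 0.967 and 0.954 with replicates 1 and 2 of its group, which had 0.992 with each other.

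Lymphoid markers were scarce. The 4 B cell genes summed to 2.59, 2.51 and 1.44 FPKM in WT, 10.1, 4.27 and 2.0005 FPKM in M-Shp2-/- and 0.932, 0.693 and 1.122 FPKM in SHP099, with Pax5 at 5.06 FPKM in M-Shp2-/- replicate 1. The 6 T and NK cell genes summed to 0.729, 1.86 and 4.12 FPKM in WT, 0.324, 0.355 and 2.38 FPKM in M-Shp2-/- and 5.56, 4.04 and 3.59 FPKM in SHP099. The 5 dendritic cell genes, with Siglech at 0 in 8 of the 9 libraries, summed to 3.83 to 6.11 FPKM in WT, 3.43 to 7.33 FPKM in M-Shp2-/- and 1.03 to 1.498 FPKM in SHP099. Neutrophil genes summed to at most 5.15 FPKM, nearly all of it Camp, and at least 1 of Ly6g, Mpo and Elane was at 0 in every library. Mast cell and eosinophil genes reached a sum of 1.10 FPKM with Fcer1a at 0 throughout, erythroid genes a sum of 1.52 FPKM and endothelial genes, led by Kdr, a sum of 5.32 FPKM. In SHP099 against WT the markers Ccr7 and Kdr fell, each with no overlap and also with median-of-ratios scaling, Ccr7 by a log2 fold change of -1.52 (limma adjusted p = 0.0192) and Kdr by -1.08 (limma adjusted p = 0.0406). Over the alternatives the values ranged from -2.65 to -0.617 for Ccr7 and from -1.59 to -0.488 for Kdr. Neither was called with no filter on low FPKM (limma adjusted p = 0.0811 and 0.139) or without any 1 of the SHP099 libraries (0.0615 to 0.107 and 0.114 to 0.164), and Kdr was also lost without WT replicate 1 or 3 (0.0985 and 0.0612), with the replicate block (0.0580) and with all 9 libraries in 1 fit (0.0720). What part these cells had in the levels below was not tested.

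**Figure D1:**
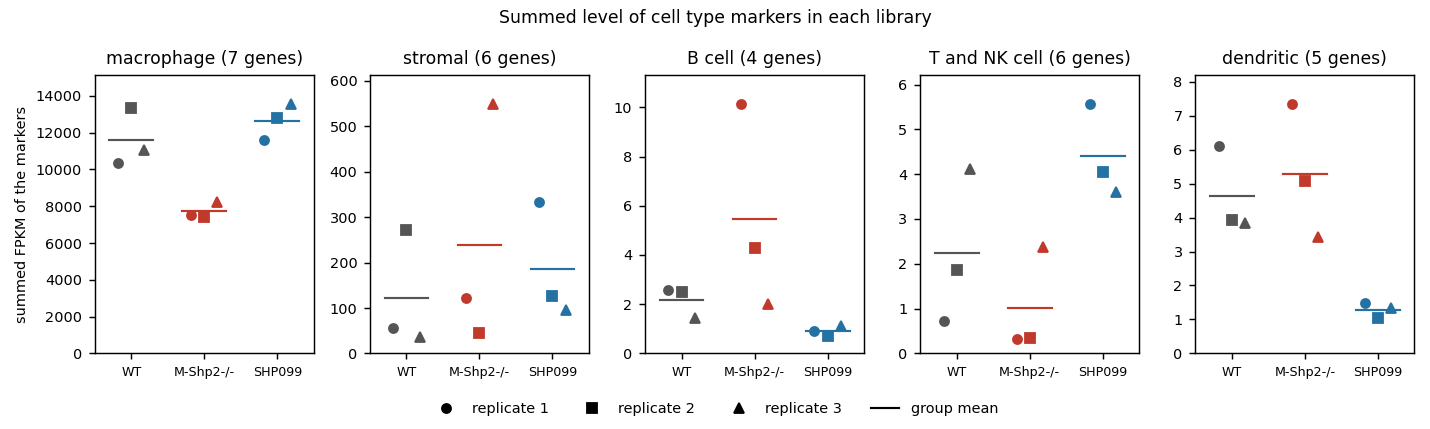
Summed FPKM of the marker genes of 5 cell types in each of the 9 libraries, by group; symbols give the replicate and bars the group mean. M-Shp2-/- replicate 3 had the highest stromal sum, 548 FPKM, and M-Shp2-/- replicate 1 the highest B cell sum, 10.1 FPKM. The macrophage sum was mostly Lyz2, the locus of cre.

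Ptpn11, which encodes SHP2, lies on chromosome 5 from 121130533 to 121191397 on the minus strand of GRCm38.p6 and is the gene targeted in the M-Shp2-/- mice. Its level was 45.8, 44.0 and 40.0 FPKM in the WT libraries, 18.6, 17.8 and 18.9 FPKM in the M-Shp2-/- libraries and 43.0, 42.1 and 39.6 FPKM in the SHP099 libraries. The 3 M-Shp2-/- libraries lay far below all others and close to one another, whereas those of WT and SHP099 overlapped. The labels were thus matched by the targeted gene, with 42.5% of the WT mean left in M-Shp2-/- cells (18.4 ± 0.590 against 43.3 ± 3.00 FPKM, SD, n = 3 each). Gene-level FPKM sums the reads of all exons, and fewer cells with the transcript and less transcript per cell cannot be told apart in it.

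Ptpn11 fell in M-Shp2-/- cells by a log2 fold change of -1.19 (SE 0.0956, 95% interval -1.42 to -0.96; limma, Benjamini-Hochberg adjusted p = 0.0168), lower in 3 of 3 libraries. It was the 1 member of 9 tested to pass an adjusted p of 0.05, where 0.0873% of all genes (10 of 11450) were called; under stricter thresholds that the study had set for another test, on counts, and that were applied to limma here (0.005 for the adjusted p together with a log2 fold change of 1 or more in size), no member and 0.00873% of all genes (1 gene) were called. The call was lost without WT replicate 1, WT replicate 2, M-Shp2-/- replicate 1 or M-Shp2-/- replicate 2, at limma adjusted p values of 0.105, 0.125, 0.196 and 0.151 and log2 fold changes from -1.15 to -1.19. It was kept without WT replicate 3 or M-Shp2-/- replicate 3 (limma adjusted p = 0.0420 and 0.0473). The replicate block also ended the call, as did leaving out WT replicate 2 and M-Shp2-/- replicate 3 together. Both kept a log2 fold change of -1.19. The median of all genes was shifted to 0.15 in this comparison and to 0.13 in SHP099 against WT, and to -0.01 in both after median-of-ratios scaling, which moved Ptpn11 to -1.36 (limma adjusted p = 0.00764).

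In SHP099 cells, where the protein is inhibited and the gene is intact, Ptpn11 differed from WT by a log2 fold change of -0.05 (SE 0.0856, 95% interval -0.26 to 0.15; limma adjusted p = 0.729), which left 96.1% of the WT mean. With median-of-ratios scaling the log2 fold change was -0.20 (limma adjusted p = 0.161). M-Shp2-/- and SHP099 cells were also compared with each other: Ptpn11 was lower in M-Shp2-/- by -1.13 on the log2 scale (SE 0.0760, 95% interval -1.31 to -0.95; limma adjusted p = 0.0109), the smallest p of all genes tested. The call held without M-Shp2-/- replicate 3 (limma adjusted p = 0.00124) and was lost without any 1 of the 5 other libraries, at limma adjusted p values of 0.0534 to 0.115. The replicate block also ended it, with the log2 fold change still at -1.13.

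**Figure D2:**
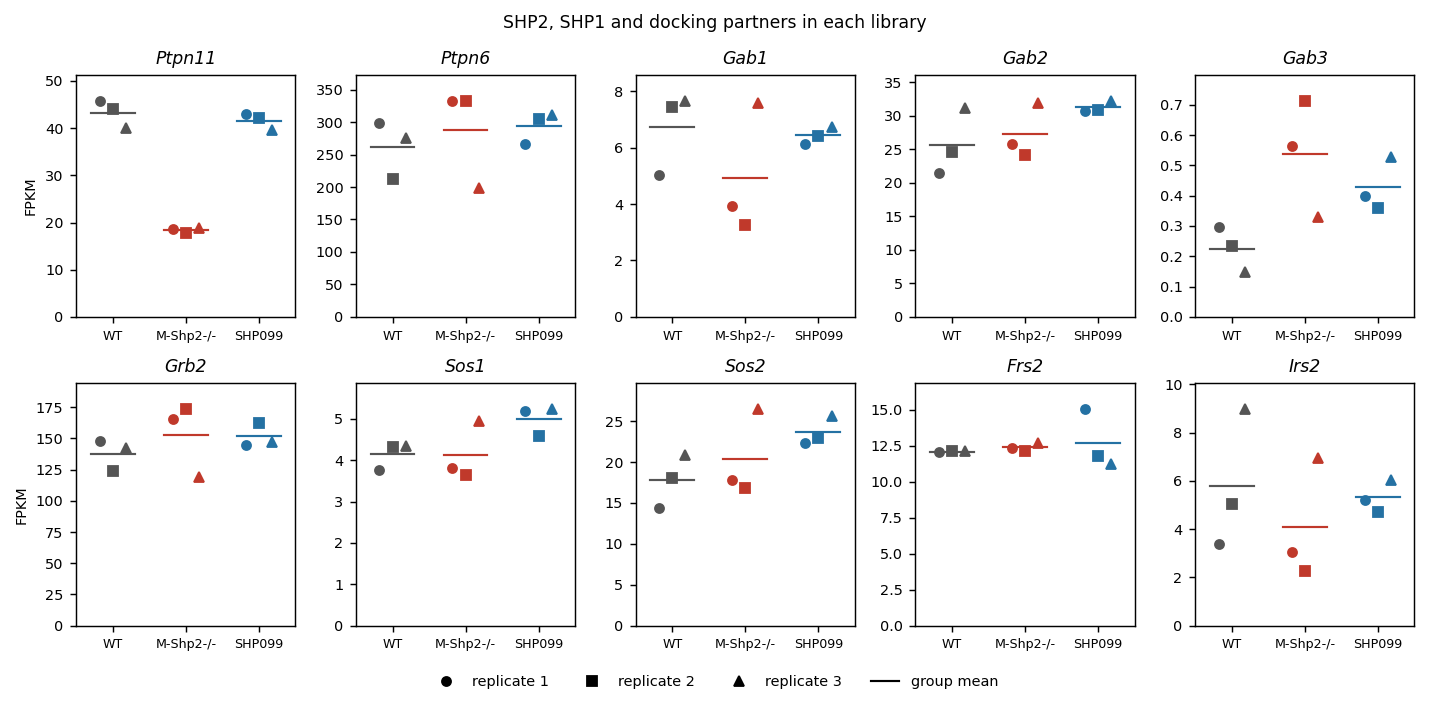
FPKM of the 10 genes in each library (vertical axes from 0), by group; symbols give the replicate and bars the group mean. Ptpn11 lay between 17.8 and 18.9 FPKM in the M-Shp2-/- libraries and between 39.6 and 45.8 FPKM in all others, while M-Shp2-/- replicate 3 was set apart from replicates 1 and 2 in Ptpn6, Gab1, Grb2, Sos2 and Irs2.

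Ptpn6, the gene of SHP1, lies on chromosome 6 from 124720707 to 124738714 on the minus strand and was the most abundant member per length of transcript in every group. It measured 298, 212 and 275 FPKM in WT, 332, 333 and 198 FPKM in M-Shp2-/- and 267, 304 and 310.4 FPKM in SHP099. All 3 groups overlapped, and both the highest and the lowest value belonged to M-Shp2-/- cells. The log2 fold change was 0.11 (95% interval -0.45 to 0.68; limma adjusted p = 0.821) in M-Shp2-/- against WT, -0.07 with median-of-ratios scaling, and 0.18 (-0.15 to 0.51; limma adjusted p = 0.462) in SHP099 against WT, 0.03 with that scaling.

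The windows around the transcription start of the phosphatase pair, Ptpn11 and its paralog Ptpn6, are shown as a description. Ptpn11 is the gene targeted in M-Shp2-/- cells, so its fall there was set by the design. What part these windows had in any level was not tested. The windows were taken from RefSeq (GRCm38.p6), in which 8 of the 10 genes had a window. Gab2 and Gab3 had none. Both are on the minus strand, at chr5:121191348-121191647 for Ptpn11 and chr6:124738660-124738959 for Ptpn6, written 5′ to 3′ with capitals for matches on either strand to GGGCGG (GC box) and TGACGTCA (cAMP response element). Overlapping matches were counted singly.
Ptpn11: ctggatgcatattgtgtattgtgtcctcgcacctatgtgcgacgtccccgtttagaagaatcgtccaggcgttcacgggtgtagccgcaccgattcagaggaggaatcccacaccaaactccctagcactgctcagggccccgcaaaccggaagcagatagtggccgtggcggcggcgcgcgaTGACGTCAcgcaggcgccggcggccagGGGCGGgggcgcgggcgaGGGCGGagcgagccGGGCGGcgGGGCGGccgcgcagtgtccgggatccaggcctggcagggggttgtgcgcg
Ptpn6: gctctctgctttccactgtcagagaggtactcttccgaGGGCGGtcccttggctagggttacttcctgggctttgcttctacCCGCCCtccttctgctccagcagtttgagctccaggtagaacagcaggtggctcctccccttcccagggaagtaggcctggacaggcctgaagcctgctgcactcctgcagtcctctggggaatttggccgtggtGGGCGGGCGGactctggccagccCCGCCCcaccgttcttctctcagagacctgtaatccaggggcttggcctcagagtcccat
The Ptpn11 window held 4 GC boxes, 1 cAMP response element and 37 CpG dinucleotides, with a GC content of 68.7%. The Ptpn6 window held 5 GC boxes, no cAMP response element and 8 CpG dinucleotides, with a GC content of 61.7%. Neither held GAGGAAGT (a PU.1 motif) or TATAAA. Of the 32851 windows of 300 bases, 35.7% held a GC box, 1.79% the cAMP response element, 3.20% GAGGAAGT and 13.6% TATAAA, with a median of 7 CpG dinucleotides.

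The SHP1 to SHP2 balance was taken within each library, where scaling has no effect. The Ptpn6 to Ptpn11 ratio of FPKM averaged 6.07 ± 1.11 in WT (4.81 to 6.89), 15.7 ± 4.56 in M-Shp2-/- (10.5 to 18.8) and 7.08 ± 0.828 in SHP099 (6.19 to 7.83), each with SD over 3 libraries. All M-Shp2-/- libraries lay above all others, and WT and SHP099 overlapped. Ptpn11, the denominator, is the gene targeted in M-Shp2-/- cells, so a higher ratio there was set by the design. It does not show a change of Ptpn6, whose log2 fold change against WT was 0.11 (limma adjusted p = 0.821). The difference on the log2 scale was 1.34 for M-Shp2-/- against WT, 1.11 for M-Shp2-/- against SHP099 and 0.23 for SHP099 against WT, with exact two-sided permutation p values of 0.1, 0.1 and 0.4 (Benjamini-Hochberg adjusted 0.4, 0.4 and 0.436 over 12 tests). The smallest p that 3 against 3 libraries allow is 0.1. The absolute ratio depends on the length used. The deposited FPKM rested on the mean length of a gene's transcripts, 957 bases for Ptpn6 and 4828 for Ptpn11, and by the longest transcript of each the ratio averaged 3.88 in WT, 10.0 in M-Shp2-/- and 4.53 in SHP099.

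The other ratios gave no adjusted p of at most 0.05, which 3 against 3 libraries cannot reach. Gab2 to Gab1 was 3.88 ± 0.509 in WT, 6.06 ± 1.651 in M-Shp2-/- and 4.87 ± 0.134 in SHP099, where all libraries lay above WT (exact permutation p = 0.1, adjusted 0.4). Sos1 to Sos2 was 0.237 ± 0.0269, 0.206 ± 0.0162 and 0.212 ± 0.0174, with overlapping groups. Gab3 to Gab2 lay at 0.00933 ± 0.00455, 0.0206 ± 0.00970 and 0.0137 ± 0.00240, also with overlap between groups. Its log2 difference from WT was 1.15 in M-Shp2-/- and 0.67 in SHP099. The lowest values over the alternatives were 0.232 and -0.0684, so that the direction turned in SHP099.

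**Figure D3:**
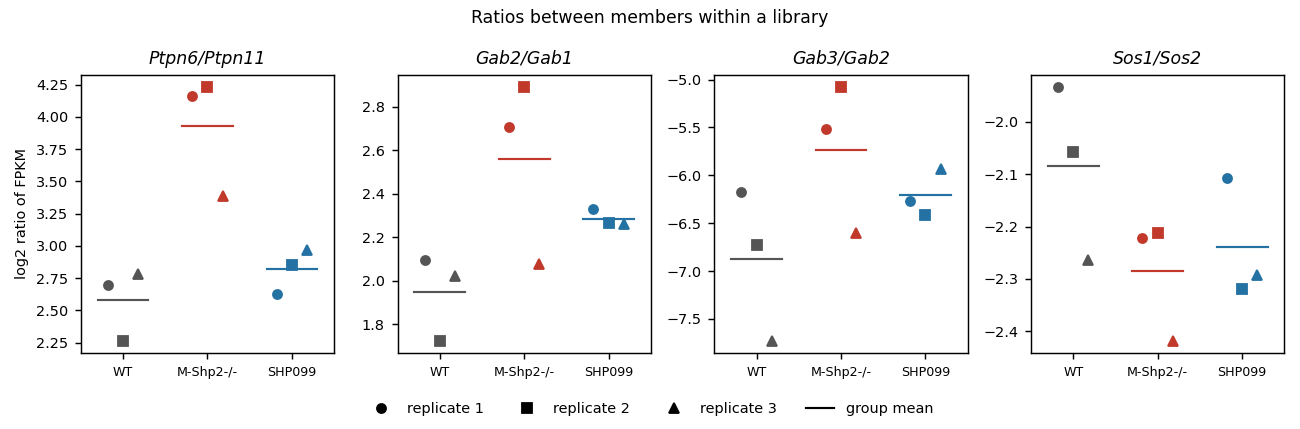
Log2 ratio of FPKM between 4 pairs of members in each library, by group; symbols give the replicate and bars the group mean. The Ptpn6 to Ptpn11 ratio of every M-Shp2-/- library lay above that of every WT and SHP099 library, with group means of 3.93, 2.58 and 2.82 on the log2 scale for M-Shp2-/-, WT and SHP099. Ptpn11 is the gene targeted in M-Shp2-/- cells, so this rise was set by the design.

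Among the docking proteins, Gab2, the main Gab protein of myeloid cells, was the most abundant. It measured 21.4, 24.6 and 31.1 FPKM in WT, 25.8, 24.1 and 32.0 FPKM in M-Shp2-/- and 30.8, 30.9 and 32.3 FPKM in SHP099. SHP099 libraries were close together near the top of the WT range and overlapped it only through WT replicate 3. Without that library the log2 fold change of 0.29 (95% interval -0.03 to 0.61; limma adjusted p = 0.226) became 0.43 (limma adjusted p = 0.0329), and with median-of-ratios scaling it was 0.14 (limma adjusted p = 0.717).

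Gab1, which docks SHP2 below many growth factor receptors, was lower and more variable. It measured 5.02, 7.46 and 7.67 FPKM in WT, 3.94, 3.26 and 7.57 FPKM in M-Shp2-/- and 6.13, 6.43 and 6.74 FPKM in SHP099. M-Shp2-/- replicates 1 and 2 were the lowest of the 9 libraries, and replicate 3 was among the highest. The log2 fold change in M-Shp2-/- against WT was -0.43 (95% interval -1.13 to 0.27; limma adjusted p = 0.544), between -0.73 and -0.23 with single libraries left out, and in SHP099 against WT -0.04 (limma adjusted p = 0.913).

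Gab3 was near the detection limit, with 10 to 47 reads per library. It measured 0.296, 0.233 and 0.147 FPKM in WT, 0.564, 0.714 and 0.329 FPKM in M-Shp2-/- and 0.399, 0.361 and 0.528 FPKM in SHP099. WT libraries were below all others, and the gene did not enter the test at a mean of at least 1 FPKM. Without that filter its log2 fold change was 0.32 in M-Shp2-/- (limma adjusted p = 0.629) and 0.22 in SHP099 against WT (limma adjusted p = 0.221), on a scale of FPKM + 1 that understates changes of low genes. With a pseudocount of 0.1 the values were 0.94 and 0.72 (limma adjusted p = 0.650 and 0.327), and with voom on recovered reads 1.19 and 0.94 (limma adjusted p = 0.627 and 0.290).

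Irs2, the docking protein of insulin and IL-4 receptors, had the widest relative spread of the members in WT and M-Shp2-/-, with SDs of 49.4% and 61.3% of the mean, but not in SHP099 (12.3%). It measured 3.40, 5.02 and 8.97 FPKM in WT, 3.07, 2.26 and 6.96 FPKM in M-Shp2-/- and 5.22, 4.73 and 6.02 FPKM in SHP099. WT alone spanned nearly the whole range, so that no order of groups was visible. Frs2, which docks SHP2 and Grb2 below fibroblast growth factor receptors, was the steadiest in WT and M-Shp2-/-, with 12.0, 12.1 and 12.1 FPKM and 12.3, 12.2 and 12.7 FPKM, and measured 15.1, 11.8 and 11.3 FPKM in SHP099.

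Grb2, the adaptor between docking proteins and Sos, was the second most abundant member per length of transcript. It measured 148, 124 and 142 FPKM in WT, 166, 173 and 119 FPKM in M-Shp2-/- and 145, 163 and 147 FPKM in SHP099. As with Ptpn6, the extremes were both M-Shp2-/- libraries and the groups overlapped. The log2 fold changes of 0.13 in M-Shp2-/- and 0.14 in SHP099 against WT (limma adjusted p = 0.689 and 0.402) turned to -0.04 and -0.01 with median-of-ratios scaling.

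Of the exchange factors, Sos2 exceeded Sos1 in all 9 libraries. Sos2 measured 14.4, 18.02 and 20.9 FPKM in WT, 17.8, 16.9 and 26.5 FPKM in M-Shp2-/- and 22.4, 22.9 and 25.6 FPKM in SHP099. Sos1 measured 3.77, 4.33 and 4.35 FPKM in WT, 3.82, 3.64 and 4.95 FPKM in M-Shp2-/- and 5.20, 4.59 and 5.23 FPKM in SHP099. Both were higher in all SHP099 libraries than in all WT libraries, with log2 fold changes of 0.41 for Sos2 (95% interval 0.07 to 0.74; limma adjusted p = 0.126) and 0.22 for Sos1 (limma adjusted p = 0.297) that were 0.26 and 0.10 with median-of-ratios scaling. Neither passed the test with all libraries. Without WT replicate 3, Sos2 had a log2 fold change of 0.52 (limma adjusted p = 0.0455).

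In SHP099 against WT no member of 9 tested passed an adjusted p of 0.05, where 6.96% of all genes (797 of 11450) were called by limma, nor the stricter thresholds, where 0.166% (19 genes) were. The count of all genes called fell to 284, 399, 90, 47 and 116 without WT replicates 1 and 2 and SHP099 replicates 1, 2 and 3 in that order, and rose to 1273 without WT replicate 3, when Gab2 and Sos2 were called. Sos2 had an unadjusted limma p of 0.0239, the only member under 0.05. Groups without overlap were counted as well. They were Ptpn11 and Frs2 in M-Shp2-/- against WT, 2 of 9 beside 19.1% of all genes, Sos1 and Sos2 in SHP099 against WT, 2 of 9 beside 34.6%, and Ptpn11 in M-Shp2-/- against SHP099, 1 of 9 beside 17.7%. The shares of members were thus 22.2%, 22.2% and 11.1% in these comparisons, the latter pair below those of all genes. Frs2 was apart by a log2 fold change of only 0.03, which was -0.13 with median-of-ratios scaling. It lies 128797 bases from Lyz2, the locus of cre. Of the 15 tested genes within 1 Mb of Lyz2, Frs2 among them, 6 (40%) did not overlap in M-Shp2-/- against WT, beside 19.1% of all genes. What part this location had was not tested.

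**Figure D4:**
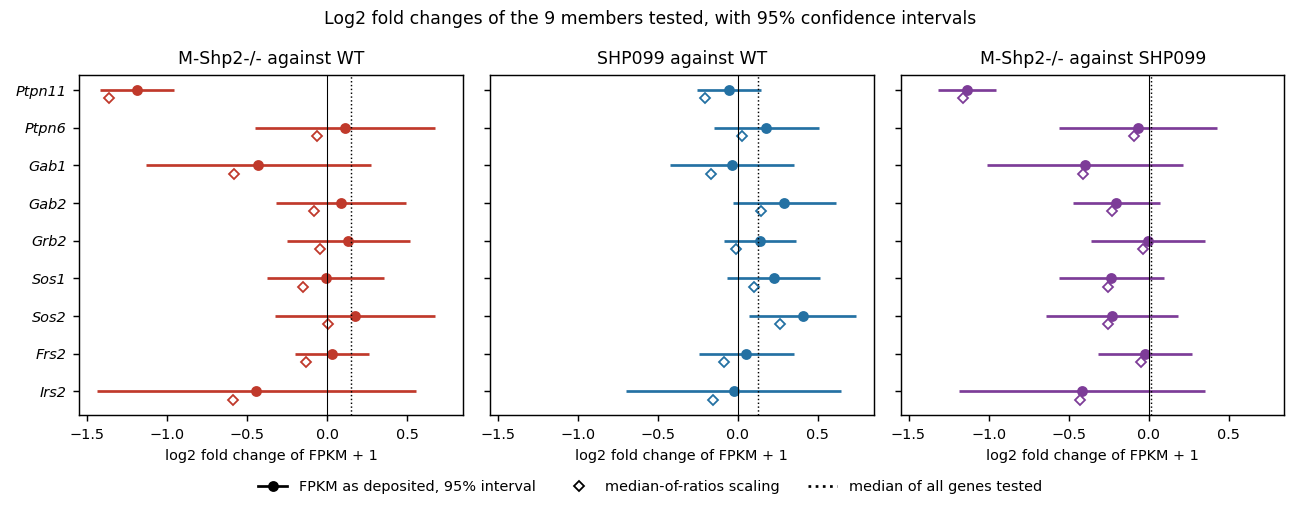
Log2 fold changes of FPKM + 1 for the 9 tested members in the 3 comparisons, with 95% confidence intervals from limma (n = 3 libraries per group); diamonds give the value with median-of-ratios scaling and dotted lines the median of all genes tested. Ptpn11 lay at -1.19 and -1.13 in the comparisons with M-Shp2-/- cells, and intervals of the other members crossed 0 except that of Sos2 in SHP099 against WT, whose limma adjusted p was 0.126.

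In M-Shp2-/- against SHP099, 1 member of 9 passed an adjusted p of 0.05 beside 0.0699% of all genes (8 genes), and none by the stricter thresholds, where the share of all genes was 0%. All 9 log2 fold changes were negative, with a median of -0.23 against 0.02 for all genes. This comparison depended on every library. Without any 1 of the 5 libraries other than M-Shp2-/- replicate 3, limma called 0 members and 0 to 2 genes. Without M-Shp2-/- replicate 3, the library with the highest stromal sum, 5 of 9 members were called by limma beside 19.9% of all genes (2277 genes). Besides Ptpn11 these were Irs2 at a log2 fold change of -0.79 (limma adjusted p = 0.0186), Gab1 at -0.70 (limma adjusted p = 0.0117), Sos2 at -0.42 (limma adjusted p = 0.0208) and Gab2 at -0.32 (limma adjusted p = 0.0250), each lower in M-Shp2-/- cells. Ptpn6 and Grb2 then stood at 0.18 and 0.16, above 0 and not called (limma adjusted p = 0.164 and 0.160). The part of the stromal and B cell markers in these differences was not tested.

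Per length of transcript, the order in WT was Ptpn6 (262 ± 44.8 FPKM), Grb2 (138 ± 12.5), Ptpn11 (43.3 ± 3.00), Gab2 (25.7 ± 4.96), Sos2 (17.8 ± 3.24), Frs2 (12.1 ± 0.0563), Gab1 (6.71 ± 1.48), Irs2 (5.80 ± 2.86), Sos1 (4.15 ± 0.328) and Gab3 (0.225). Gab1, Irs2 and Sos1 overlapped as neighbours and the rest did not. By the longest transcript of each gene, Irs2 had rank 6 in WT, overlapping Sos2, and Frs2 rank 8, overlapping Gab1. In M-Shp2-/- cells Ptpn11 had rank 5 in place of rank 3, behind Gab2 and Sos2, and overlapped Sos2. By the longest transcript it had rank 4 there, ahead of Sos2, which it also overlapped. In SHP099 cells the order by FPKM was that of WT, and Irs2 and Sos1 were the only neighbours that overlapped. By the longest transcript, Ptpn6 and Grb2 overlapped in every group.

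Some pairs of members varied together across libraries and others did not. Over the 9 libraries, which share the 3 groups, Pearson correlations of log2(FPKM + 1) were 0.95 between Ptpn6 and Grb2, 0.96 between Gab2 and Sos2, 0.92 between Gab1 and Irs2 and -0.785 between Gab1 and Grb2, while Ptpn11 had -0.08 with Ptpn6. Ptpn11 also had 0.07 with Gab2 and -0.005 with Sos2. Frs2 ranged from -0.27 with Ptpn6 to 0.29 with Sos1. The genes most like Ptpn11 of all 11450 were Lyz2 (0.91), Gm42547 (0.87), the ETS factor Elk1 (0.86), Gm16015 (0.84) and the Hippo pathway scaffold Sav1 (0.84). Those most like Ptpn6 were Grb2 (0.95), Cables2 (0.93), Cyba (0.93), a subunit of the phagocyte oxidase, Narfl (0.92) and the kinase gene Dapk3 (0.92). Those most like Irs2 were the complement properdin gene Cfp (0.97), the cAMP-responsive factor Crem (0.97), Mdfic (0.97), Tmem171 (0.96) and Enpp4 (0.96). These are descriptions over 9 points. Ptpn11 was set low in the M-Shp2-/- libraries by its deletion, so its correlations largely restate the contrast of that group with the others. Cfp itself measured 65.0, 107 and 211 FPKM in WT and 51.0, 41.2 and 201 FPKM in M-Shp2-/-, high in the same libraries as Irs2.

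Lyz2, the locus from which cre was driven, measured 7440, 10228 and 7951 FPKM in WT, 4863, 4743 and 5407 FPKM in M-Shp2-/- and 9348, 10280 and 10715 FPKM in SHP099. All M-Shp2-/- libraries were the lowest, with a log2 fold change of -0.76 against WT (limma adjusted p = 0.388) and -1.02 against SHP099 (limma adjusted p = 0.0555), neither past the threshold. The difference from SHP099 was called with a mean FPKM of at least 5 (limma adjusted p = 0.0254), with voom on recovered reads (limma adjusted p = 0.0246) and without M-Shp2-/- replicate 3 (-1.07, limma adjusted p = 0.00242). In the other 13 of 16 alternatives it was not, at limma adjusted p values of up to 0.469. Tlr7, the receptor of IMQ, measured 89.6, 87.0 and 103 FPKM in WT, 73.8, 88.5 and 72.0 FPKM in M-Shp2-/- and 49.6, 48.7 and 67.8 FPKM in SHP099. It fell in SHP099 cells by a log2 fold change of -0.75 (limma adjusted p = 0.0314), a call that median-of-ratios scaling did not keep (-0.90, limma adjusted p = 0.0541), nor did the fit with no filter on low FPKM (limma adjusted p = 0.111). It was also lost without WT replicates 1 or 2 or SHP099 replicates 1 or 2 (limma adjusted p = 0.0710, 0.0546, 0.121 and 0.142).

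Genes around the SHP2 complex were read from 4 lists. In M-Shp2-/- against WT, limma called none of 16 tested other adaptors, 16 genes of the RAS-ERK cascade, 14 of the PI3K-AKT arm and 14 receptors, with medians of 0.12, 0.06, 0.13 and 0.14 on the log2 scale beside 0.15 for all genes; 5 of the 60 genes (8.33%) had an unadjusted p under 0.05 beside 10.5% of all genes. In M-Shp2-/- against SHP099, limma also called none, with medians of 0.01, -0.01, -0.08 and 0.17 beside 0.02, and 5 of 60 (8.33%) had an unadjusted p under 0.05 beside 12.6% of all genes. Both counts share the M-Shp2-/- libraries, and the comparisons with WT share the WT libraries.

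SHP099 against WT was the comparison in which limma called genes of these lists, 5 of 60, beside 6.96% of all genes, and 16 of 60 (26.7%) had an unadjusted p under 0.05 beside 26.7% of all genes. Pag1, a membrane adaptor that recruits the kinase Csk, rose from 10.4, 12.0 and 13.4 FPKM to 29.4, 24.5 and 27.0 FPKM (log2 fold change 1.11, limma adjusted p = 0.00846), the only one of 16 adaptors called. The call was kept without any 1 library and lost with no filter on low FPKM (limma adjusted p = 0.0534). Sirpa, an inhibitory receptor that binds SHP1 and SHP2, measured 621, 712 and 751 FPKM in WT and 882, 934 and 915 FPKM in SHP099 (0.39, limma adjusted p = 0.0548). It was called in 3 alternatives, without WT replicate 3 (limma adjusted p = 0.0321), with a mean FPKM of at least 5 (0.0455) and with quantile normalization (0.0346). In all others it was not, with 0.24 (limma adjusted p = 0.410) after median-of-ratios scaling and limma adjusted p values of up to 0.212 with other libraries left out. All SHP099 values of both genes were above all WT values.

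In the RAS-ERK list Rasa1, a RAS GTPase-activating protein, stood at 0.17 (limma adjusted p = 0.197), and at 0.03 (limma adjusted p = 0.8997) after median-of-ratios scaling. Of 14 PI3K-AKT genes, the regulatory subunit Pik3r1 (0.45, limma adjusted p = 0.0323) and the kinase Akt1 (0.33, limma adjusted p = 0.0383) rose. Median-of-ratios scaling gave 0.30 and 0.18, with limma adjusted p values of 0.217 and 0.317. With no filter on low FPKM the limma adjusted p values were 0.0711 and 0.0599, with eBayes without trend 0.0501 and 0.0703 and with the replicate block 0.0582 and 0.0714, and Pik3r1 was also lost with quantile normalization (limma adjusted p = 0.0668). Of the single libraries left out, only WT replicate 3 kept both calls, and leaving out any of WT replicates 1 and 2 and SHP099 replicates 1, 2 and 3 gave limma adjusted p values of 0.0730 to 0.164 for Pik3r1 and 0.0811 to 0.167 for Akt1. Their groups did not overlap, at 30.1 to 32.4 FPKM against 39.9 to 46.0 FPKM for Pik3r1 and 225 to 235 FPKM against 285 to 297 FPKM for Akt1.

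Of 14 receptors tested, 1 rose and 1 fell. Csf1r, the receptor of M-CSF, rose from 58.2, 67.8 and 110.6 FPKM in WT to 181, 211 and 206 FPKM in SHP099 (log2 fold change 1.38, limma adjusted p = 0.0222). The call of Csf1r was lost with median-of-ratios scaling (1.23, limma adjusted p = 0.0628) and without SHP099 replicates 1, 2 or 3 (limma adjusted p = 0.0760, 0.116 and 0.0774), with log2 fold changes of 1.19 to 1.648 over all alternatives. Csf2rb, the shared signalling chain of the GM-CSF, IL-3 and IL-5 receptors, fell from 479, 427 and 388 FPKM to 205, 153 and 181 FPKM (-1.26, limma adjusted p = 0.00769). Its call was kept without any 1 library and with that scaling. With no filter on low FPKM neither receptor was called (limma adjusted p = 0.0979 for Csf1r and 0.0581 for Csf2rb). In both genes M-Shp2-/- replicate 3 lay nearest to SHP099 cells, with 176 FPKM of Csf1r beside 87.4 and 71.8 FPKM, and 227 FPKM of Csf2rb beside 356 and 391 FPKM. Median log2 fold changes in SHP099 against WT were 0.06 for the adaptors, 0.08 for RAS-ERK, 0.23 for PI3K-AKT and 0.05 for the receptors, beside 0.13 for all genes.

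**Figure D5:**
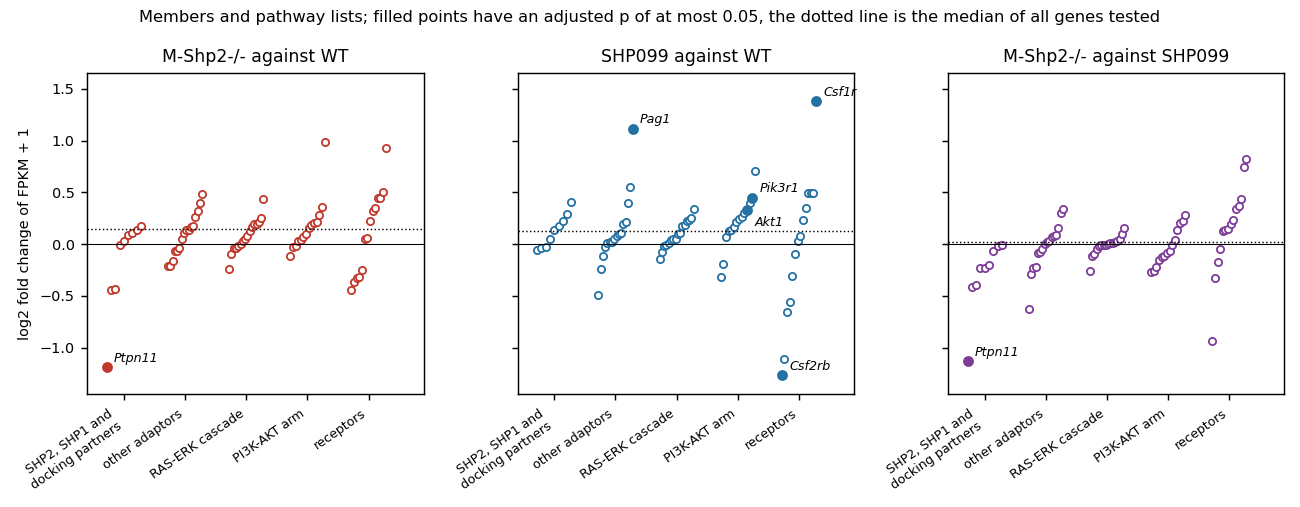
Log2 fold changes of FPKM + 1 of the members and of 4 pathway lists in the 3 comparisons, each point a gene and sorted within its list; filled points had a limma adjusted p of at most 0.05 and the dotted line is the median of all genes tested. Of the genes plotted, Pag1, Pik3r1, Akt1, Csf1r and Csf2rb were filled besides Ptpn11, all in SHP099 against WT, and Pik3r1, Akt1 and Csf1r were not called with median-of-ratios scaling.

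Exons of 3 members overlapped a gene on the opposite strand: Gm20531 with Ptpn6, Gm31105 with Gab1 and 9530052E02Rik with Irs2. Their levels were at most 0.230, 0.459 and 0.0202 FPKM in any library. Whether strand was used in counting was not given in the sources used here.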

How the data were processed

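RNA from 9 cultures was sequenced, and per the submitters' processing notes CASAVA 1.8, HISAT2 2.0.4 and HTSeq 0.9.1 were used. The authors deposited 1 table of FPKM values per gene and library, which was analysed as deposited; its genome build and FPKM tool were not given in the sources used here, and of the 5235 genes of the deposited list of gene spans found in GENCODE M21, 91.8% had the same span there. Since the unit is FPKM, calls rested on no count test, and voom on recovered reads was an alternative. The depth of each library was recovered as the value at which FPKM times the mean transcript length gave the most whole reads. At that depth 96.3 to 96.7% of values of up to 50 reads were whole (within 0.05), which gave the read numbers.

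Genes with a mean of at least 1 FPKM were tested with limma 3.58.1 (R 4.3.3; moderated by trend, two-sided, pairwise on 6 libraries) on log2(FPKM + 1), with Benjamini-Hochberg adjustment over all genes. Calls used an adjusted p of at most 0.05, and stricter ones, 0.005 together with a log2 fold change of 1 or more in size, which the study had used with another test, on counts. The fit was tested on simulated data. Ratios were tested with the exact permutation test of scipy 1.17.1. Named were the 10 members, genes of each list at an adjusted p of at most 0.05 or else those with the smallest p up to 2 per list, the 5 genes most correlated with Ptpn11, Ptpn6 and Irs2, Lyz2 and Tlr7, and genes overlapping members; the marker genes singled out were named after their values were seen. The members and lists were chosen with earlier results of these data known. Alternatives were other pseudocounts, filters, scalings, fits and left-out libraries. A gene of a pathway list and a marker gene were left out of the lists, with their sums, medians and counts, and are not reported here.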

Additional observations from a re-analysis of the deposited data

How the results depend on the processing

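Ptpn11 kept its sign in all 49 alternatives. Its limma adjusted p ranged from 0.00186 to 0.196 in M-Shp2-/- against WT, from 0.161 to 0.940 in SHP099 against WT and from 0.00124 to 0.146 against SHP099. The other members had 389 alternatives, of which 353 kept direction and call, 30 turned direction and 6 gained a call. For Lyz2, Tlr7, Ccr7, Kdr and the 7 list genes given for SHP099 against WT, the only genes outside the members with alternatives, 44 of 191 lost a call, 6 gained one and 0 turned direction. Of 63 for the other ratios, 2 moved by more than the spread between replicates, both for Gab3 to Gab2. Except where fewer libraries or another number of genes entered the fit, the cause was not tested. Gab3 rested on 10 to 47 reads per library, which limits its values.

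Replicate numbers showed no steady pairing of libraries. Correlations of same-numbered libraries, after taking out group means, were 0.49, -0.43 and 0.19 in M-Shp2-/- against WT. They were -0.04, -0.09 and 0.45 in SHP099 against WT and -0.01, 0.18 and -0.05 in M-Shp2-/- against SHP099. Deviations from the mean of only 3 libraries cannot exclude that some of them were paired. With the replicate block, Ptpn11 stayed at -1.19 against WT (limma adjusted p = 0.157) and -1.13 against SHP099 (limma adjusted p = 0.146), fitted with fewer degrees of freedom. At an adjusted p of 0.05 the block gave 0 members and 2 genes against WT (2340 at an unadjusted p under 0.05), and 0 members and 0 genes against SHP099 (1640 unadjusted). By the stricter thresholds it gave 0 genes in M-Shp2-/- against WT and 0 in SHP099 against WT.

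In M-Shp2-/- against WT, directions turned with median-of-ratios scaling for Ptpn6 (-0.0663), Gab2 (-0.0842), Grb2 (-0.0442) and Frs2 (-0.13), and with quantile normalization for Gab2 (-0.00843) and Frs2 (-0.126). In SHP099 against WT they turned with median-of-ratios scaling for Grb2 (-0.0118) and Frs2 (-0.0885), and with quantile normalization for Frs2 (-0.0633). Without WT 2 and M-Shp2-/- 3, an alternative chosen after seeing the data, Ptpn11 was at -1.19 (limma adjusted p = 0.157), Gab2 at -0.0496 and Sos2 at -0.00089, with 0 members and 2 genes at an adjusted p of 0.05 and 0 genes by the stricter thresholds. The other alternatives for Gab3, transcript length, named genes and stricter counts were also chosen after seeing the data.

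Counts at an adjusted p of 0.05 moved in M-Shp2-/- against WT without the trend (6 genes), in SHP099 against WT with no filter (74) and with median-of-ratios scaling (511), and in M-Shp2-/- against SHP099 with no filter (3), a mean FPKM of at least 5 (17), all 9 libraries in 1 fit (3) and voom (14). By the stricter thresholds M-Shp2-/- against WT gave 0 genes with no filter, 3 with median-of-ratios scaling, 0 without the trend, and 2 genes with 1 member in the fit of all 9 libraries. SHP099 against WT gave 0 with no filter, 4 without the trend and 9 with voom. M-Shp2-/- against SHP099 gave 1 gene, a member, in the fit of all 9 libraries.

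Leaving out single libraries gave these ranges. In M-Shp2-/- against WT they were -1.24 to -1.15 for Ptpn11, -0.0336 to 0.36 for Ptpn6, -0.73 to -0.23 for Gab1, -0.0308 to 0.23 for Gab2, 0.0332 to 0.30 for Grb2, -0.12 to 0.0596 for Sos1, -0.0182 to 0.29 for Sos2, 0.0141 to 0.0454 for Frs2 and -0.82 to -0.12 for Irs2, with 0 to 1 members and 1 to 8 genes at an adjusted p of 0.05 and 0 to 0 genes by the stricter thresholds. In SHP099 against WT they were -0.11 to -0.0130 for Ptpn11, 0.0329 to 0.28 for Ptpn6, -0.21 to 0.0586 for Gab1, 0.17 to 0.43 for Gab2, 0.0629 to 0.19 for Grb2, 0.17 to 0.27 for Sos1, 0.27 to 0.52 for Sos2, -0.0679 to 0.13 for Frs2 and -0.30 to 0.29 for Irs2, with 0 to 2 members and 47 to 1273 genes, and 0 to 26 genes by the stricter thresholds. In M-Shp2-/- against SHP099 they were -1.17 to -1.11 for Ptpn11, -0.19 to 0.18 for Ptpn6, -0.70 to -0.19 for Gab1, -0.32 to -0.12 for Gab2, -0.11 to 0.16 for Grb2, -0.34 to -0.16 for Sos1, -0.42 to -0.11 for Sos2, -0.0950 to 0.0996 for Frs2 and -0.79 to -0.15 for Irs2, with 0 to 5 members and 0 to 2277 genes, and 0 to 1 members and 0 to 159 genes by the stricter thresholds. The log2 difference of the Ptpn6 to Ptpn11 ratio ranged from 1.18 to 1.61, from 0.0757 to 0.34 and from 0.957 to 1.38 in these 3 comparisons.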

Other observations

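Lyz1, the neighbour and close paralog of Lyz2, had its highest levels where Lyz2 had its lowest. It measured 20.9, 33.6 and 13.1 FPKM in WT, 311, 276 and 110.004 FPKM in M-Shp2-/- and 23.5, 26.0 and 37.7 FPKM in SHP099, so that all M-Shp2-/- libraries lay above all others. The log2 fold change against WT was 3.27 (limma adjusted p = 0.184) and against SHP099 2.85 (limma adjusted p = 0.106), neither called. Reads of such similar genes may be split uncertainly between them, and what part this had in the values was not tested. Lyz1 was chosen after its values were seen.

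Of the 26 tested genes within 1 Mb of Ptpn11, limma called 0 in any of the 3 comparisons, and 7 (26.9%) had an unadjusted p under 0.05 in M-Shp2-/- against WT, 6 (23.1%) in SHP099 against WT and 3 (11.5%) in M-Shp2-/- against SHP099, beside 10.5%, 26.7% and 12.6% of all genes. Of the 7 in M-Shp2-/- against WT, 4 belonged to the interferon-induced Oas cluster, and all 4 were lower in M-Shp2-/-. Oas2 stood at 3.03 ± 0.422 FPKM against 13.3 ± 7.45 FPKM in WT (SD, n = 3 each; log2 fold change -1.70, limma adjusted p = 0.388), and at 3.95 ± 1.21 FPKM in SHP099 cells (-1.42, limma adjusted p = 0.0701). In SHP099 against WT, Oas1a, Oas1g and Oas3 stood at -0.54, -0.64 and -1.10 (limma adjusted p = 0.309, 0.482 and 0.285), with overlapping libraries. The Oas genes were chosen after their values were seen.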
